A study of Zea mays subsp. mays with 11 samples.

Results

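To examine which Argonaute-loaded phasiRNAs depend on AGO18 in meiotic anthers of maize, 2 libraries from anthers 2 mm in length of ago18 triple homozygous mutants (ago18HM-2mm) were compared with 3 libraries from triple heterozygous siblings (ago18HT-2mm). These 5 of the 11 libraries of the series were taken by their titles, and all 659 PHAS loci of the deposited table were used, of which 430 are 21-PHAS loci and 229 are 24-PHAS loci by name. The study's annotation divides the latter into 154 meiotic and 75 premeiotic 24-PHAS loci, by abundance in other anther libraries. According to the study's text and supplement, ago18a and ago18b carry frameshift deletions made by CRISPR and ago18c carries a Mu transposon insertion. The ago18HT plants carry the same 3 mutations in heterozygous form, no wild-type library belongs to the series, and the labels give the background of all plants as mostly B73. The other 6 libraries came from anthers 5 mm in length and entered only the estimate of the spread and the comparison of anther lengths.

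PhasiRNAs are small RNAs that a Dicer-like enzyme cuts in register from a long noncoding precursor. In grass anthers the 21-nt class is made mainly before meiosis from precursors cleaved with the help of miR2118, and the meiotic 24-nt class is made by DCL5 from precursors cleaved with the help of miR2275. A small RNA acts only once it sits in an Argonaute protein, and AGO18 is a clade of Argonautes found in grasses. The TraPR column retains small RNAs held in Argonaute proteins. A value here is relative to a total of its library and not an absolute amount. Since whole anthers were used, fewer cells of a type and less RNA per cell cannot be told apart. The TraPR libraries alone do not separate less phasiRNA from less loading of it. The study also sequenced total small RNA, and for the shorter anthers it reports no effect of AGO18 loss on how abundant meiotic 24-nt phasiRNAs were. It proposes that AGO18 is needed at that length to load them and not for their accumulation. Those libraries of total small RNA were not used here.

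Values are CPM, the reads of a locus scaled to a common library total, and the denominators of this scaling were between 33076189 and 53038060 reads in the 5 libraries. The share of PHAS loci was 22.1% to 32.5% of the denominator for the ago18HT-2mm libraries, while for ago18HM-2mm it was 13.4% to 14.1%. The table holds PHAS loci only, so neither the AGO18 transcripts nor markers of anther cell types were checked. Replicate 1 of ago18HT-2mm stood apart from the other libraries of its group in both 24-PHAS classes. It was above their mean at 70 of 75 premeiotic loci (median log2 difference 1.63) and below it at 130 of 154 meiotic loci (median -0.86), while 21-PHAS loci split evenly (median 0.00). Of the ago18HM-2mm libraries, replicate 1 was below replicate 2 at 137 of 154 meiotic loci.

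The most abundant small RNA of a locus is printed here as given in the study's supplementary annotation on B73 RefGen_v5. It was chosen there from other anther libraries of total small RNA and identifies the locus, while the deposited table holds sums per locus and does not show which RNA of a locus was loaded. The 5′ base, which Argonautes read when they choose a small RNA, is in capitals and the rest in lower case. The first set holds the 4 meiotic loci with the largest decreases in ago18HM-2mm.
B73_24PHAS_51824: Aaggagucugcucuagggaacauc
B73_24PHAS_4294: Acacuaaucggauggucgucuuga
B73_24PHAS_4284: Acuaguugguucuguguauuuauc
B73_24PHAS_4292: Agagagcaucuccaucgugauuug
They lie at chr9:156597487-156598824 (minus strand), chr1:183046238-183047725, chr1:182829013-182830575 and chr1:183040718-183042666 (plus strand). By RefSeq genes of the same assembly, the first overlaps the transcribed pseudogene LOC103640422, the second the transcribed pseudogene LOC100276471 and the last the protein-coding LOC100277762, and B73_24PHAS_4284 overlaps no gene.

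The second set holds 3 of the 4 meiotic loci with the smallest decreases among those above 100 CPM in ago18HT-2mm.
B73_24PHAS_35087: Agucacugucaggucgggaucgag
B73_24PHAS_774: Agaugguccuagaauacugacgac
B73_24PHAS_26989: Aagguaccgugaguugaguaggcg
They lie at chr6:39124707-39125912, chr1:19700662-19702604 and chr5:1487630-1487912, all on the plus strand and outside RefSeq genes. As in the first set, each has 24 nt and begins with A.

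The third set holds meiotic loci whose most abundant RNA begins with C or G, which is rare in this class.
B73_24PHAS_48725: Cggagagguuaaugaucuuauuug
B73_24PHAS_35090: Cgaugguggaaucgaucgaggcug
B73_24PHAS_21372: Gaguacggugccaaaaaaaacuca
They lie at chr9:23584356-23584846 (minus strand), chr6:39238724-39240100 (minus strand) and chr4:7834848-7834929 (no strand given).

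The fourth set holds the premeiotic loci lower in ago18HM-2mm and, last, the premeiotic locus with the highest mean CPM over the 5 libraries.
B73_24PHAS_35105: Acaaccacugcuagccacaaccuc
B73_24PHAS_20630: Aagucuaggcuagguuugucacug
B73_24PHAS_48293: Acuaaaccaaaugaacuccgauug
They lie at chr6:40122405-40125870 (no strand given), chr3:229511058-229512999 (minus strand, over the transcribed pseudogene LOC103651588) and chr9:12058888-12062850 (minus strand).

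The fifth set holds the 21-PHAS loci that were lower in ago18HM-2mm, the 3 with the largest increases among called loci and, last, the locus with the highest mean CPM.
B73_21PHAS_6425: Agaagauucgucguugccggg
B73_21PHAS_6427: Aguaggcgucgagacuuguuu
B73_21PHAS_38579: Uuaucgaucaaccuaacaccc
B73_21PHAS_39753: Auuggauuguguguugguguc
B73_21PHAS_3908: Agcaaagcggcaaucuagagc
B73_21PHAS_21116: Agagccuccguacgauucgug
The first 2 are neighbours on the minus strand, at chr1:255243329-255243814 and chr1:255270500-255271065. The others lie at chr6:168622836-168623127, chr7:18379989-18380877, chr1:167217527-167219040 and chr4:3846664-3847416, and none of the 6 overlaps a RefSeq gene.

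Summed over their loci, meiotic 24-nt phasiRNAs had several-fold lower CPM in the mutant, while 21-nt phasiRNAs had slightly higher CPM. The sources used here do not say which reads the CPM denominators cover, and if meiotic reads are among them, fewer of these alone give other loci higher CPM. Meiotic loci held 117705, 237337 and 206990 CPM in the ago18HT-2mm libraries (replicates 1 to 3 in this order, here and below), against 26351 and 41553 CPM in the ago18HM-2mm libraries (replicates 1 and 2). The groups did not overlap, and the ago18HM mean was 18.1% of the ago18HT mean (two-sided exact permutation p = 0.2). With 10 ways to split 5 libraries, 0.1 is the smallest p this comparison can give. All 24-PHAS loci together were at 21.1% (exact permutation p = 0.1).

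The 21-PHAS loci held 77902, 77677 and 76943 CPM in ago18HT-2mm and 99098 and 89859 CPM in ago18HM-2mm (ratio 1.22, exact permutation p = 0.1). The spread among the ago18HT libraries was thus far smaller than the distance to either mutant library. With the meiotic CPM taken out of the library denominator, the 21-PHAS ratio was 1.02. Among the ago18HT-2mm libraries, however, meiotic CPM ran from 117705 to 237337 while 21-PHAS CPM stayed between 76943 and 77902. The part of the denominator in the 21-PHAS increase was not tested. The premeiotic loci held 25306, 9651 and 11076 CPM in ago18HT-2mm and 8181 and 9370 CPM in ago18HM-2mm (ratio 0.572, exact permutation p = 0.5). Only ago18HT-2mm replicate 1 lay far above the mutant libraries, and without it the premeiotic ratio was 0.847.

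**Figure D1:**
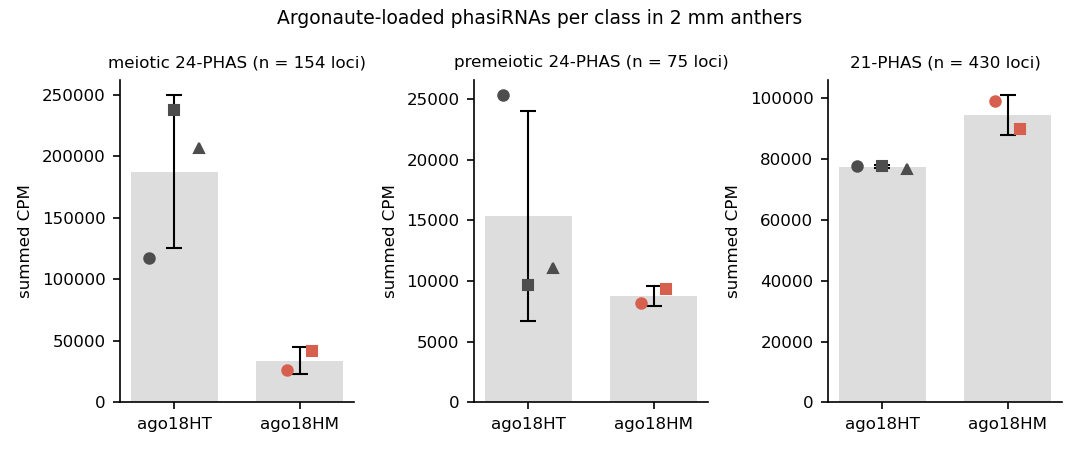
Summed CPM (y axis, from 0) of the meiotic 24-PHAS, premeiotic 24-PHAS and 21-PHAS loci in ago18HT-2mm (n = 3) and ago18HM-2mm (n = 2). Bars are means, lines are 1 SD and points are libraries; the meiotic points of ago18HM, at 26351 and 41553 CPM, lie below all ago18HT points, and the premeiotic mean of ago18HT is raised by replicate 1 at 25306 CPM.

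Locus by locus, the decrease extended over most of the meiotic class. Loci were called where limma gave an adjusted p below 0.05 over all 659 loci and a fold change above 1.5, fitted on log2(CPM + 1), a scale that understates changes of low loci. Of all loci, 125 were called in either direction (19.0%). Of 154 meiotic loci, 108 were lower in ago18HM-2mm and 0 were higher, against 17.0% lower and 1.97% higher over all loci tested. At an unadjusted p under 0.05, 124 were lower and 0 higher. The count of lower loci was 55 when only the 2 mm libraries were fitted and 62 without ago18HM-2mm replicate 1. Both mutant libraries were below all 3 ago18HT libraries at 126 meiotic loci, and such a separation was seen at 25.5% of all loci.

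The meiotic median log2 fold change was -1.99, against -0.02 over all loci. It ran from -2.81 at the lower quartile to -1.42 at the upper quartile, and 151 of 154 values were negative. At 77 loci the decrease was at least 4-fold, at 33 at least 8-fold and at 6 at least 16-fold, while 14 meiotic loci stayed within 1.5-fold. The 3 positive values belonged to loci whose groups overlapped, with the highest at B73_24PHAS_51385 (4.81, 3.45 and 2.27 CPM in ago18HT, 3.15 and 8.95 CPM in ago18HM).

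In the other classes few loci were called. Of 75 premeiotic loci 2 were lower and 0 higher (6 and 0 at an unadjusted p under 0.05), with a median log2 fold change of -0.46. Of 430 21-PHAS loci 2 were lower and 13 higher (6 and 70 at an unadjusted p under 0.05), with a median of 0.20. Both mutant libraries were above all ago18HT libraries at 157 loci, or 23.8% of all loci, and all of these were 21-PHAS loci. Centring the libraries on the 21-PHAS loci moved the median of all loci by -0.16 and left the 21-PHAS median at 0.036, with 3 lower and 5 higher calls in that class. The higher 21-PHAS calls numbered 3 without ago18HM-2mm replicate 1, 7 without ago18HT-2mm replicate 3 and 25 without ago18HM-2mm replicate 2, and the lower premeiotic calls 4 without ago18HT-2mm replicate 2 or ago18HM-2mm replicate 2.

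**Figure D2:**
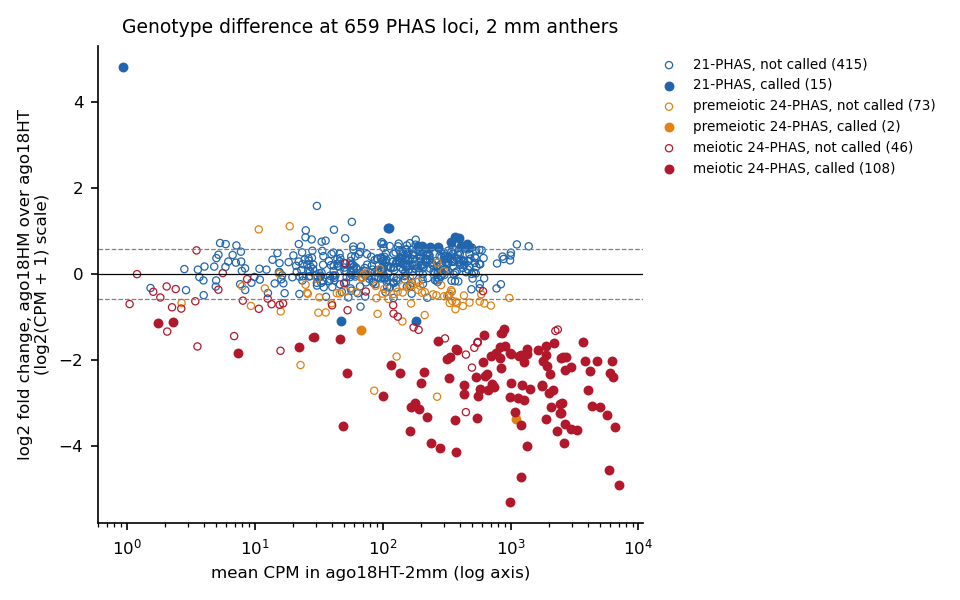
Log2 fold change of ago18HM over ago18HT at 2 mm (y axis, log2(CPM + 1) scale) against the mean CPM in ago18HT-2mm (log x axis) for 659 loci, coloured by class, with called loci filled and dashed lines at a fold change of 1.5. The 108 called meiotic loci lie below the lower line over the whole range of levels, and 13 of the 15 called 21-PHAS loci lie above the upper line.

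Most of the 8 deepest decreases were at abundant meiotic loci. B73_24PHAS_51824 had 720.3, 1302 and 964 CPM in ago18HT-2mm and 13.3 and 42.3 CPM in ago18HM-2mm, and its log2 fold change was -5.28 (SE 0.54, limma adjusted p = 0.00018). B73_24PHAS_4294 had 4762, 8744 and 7428 CPM against 171 and 301 CPM (log2 fold change -4.89, SE 0.33, limma adjusted p = 4.35e-05). In ago18HT-2mm replicates 1 and 2 it was the most abundant meiotic locus, and in neither mutant library was it so.

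B73_24PHAS_4284 had 1006, 1321 and 1287 CPM against 33.3 and 60.4 CPM, and B73_24PHAS_4292 had 3446, 7547 and 6709 CPM against 179.7 and 314 CPM (log2 fold changes -4.71 and -4.55). Further down the order, B73_24PHAS_4201, B73_24PHAS_4206 and B73_24PHAS_14666 had log2 fold changes of -4.14, -4.04 and -3.92, and B73_24PHAS_4282 had 626, 1647.5 and 1743 CPM against 56.8 and 99.8 CPM. In all 8 of these loci ago18HT replicate 1 was the lowest of its group, and it still stood at least 5.30 times above the higher mutant library. Apart from B73_24PHAS_51824 on chromosome 9 and B73_24PHAS_14666 on chromosome 2, all of them lie on chromosome 1. There they fall within chr1:180470771-180588812 or chr1:182702004-183047725. Chromosome 1 holds 37 of the 154 meiotic loci (24.0%). In ago18HT-2mm, B73_24PHAS_4201 had 191, 503 and 424 CPM and B73_24PHAS_4206 had 100.1, 402 and 339 CPM. Both lay below the meiotic medians of these libraries (366, 811 and 724 CPM).

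The loci of the highest level in the heterozygotes fell by different amounts. B73_24PHAS_10958, at chr2:81504362-81505791 on the plus strand, had 4386, 8647 and 6448 CPM in ago18HT-2mm and 417 and 678 CPM in ago18HM-2mm (log2 fold change -3.55, limma adjusted p = 0.00025). B73_24PHAS_4394 had 4061, 7483 and 7130.0 CPM against 888 and 2504 CPM (log2 fold change -2.01, limma adjusted p = 0.0211). The latter was the most abundant meiotic locus of ago18HM-2mm, with a mean of 1696 CPM, and its call was lost without ago18HM-2mm replicate 1 and in 3 of the other alternatives.

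The lower total was spread over the class. The 10 most abundant meiotic loci of a library held 30.5% to 32.4% of its meiotic CPM in all 5 libraries, and 20 or 21 loci sufficed for 50% of it. Of the 10 highest loci of each genotype, 4 were shared. Across the 154 meiotic loci, the mean CPM of both genotypes correlated with a Spearman rho of 0.926, against 0.982 across 21-PHAS loci, as a description over loci that share libraries.

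The decreases were smaller among meiotic loci of low level, a difference between groups of loci that was not tested. In the lowest 25% of the meiotic loci by mean CPM, from 0.704 to 80.6 CPM, the median log2 fold change was -0.73 and 10 of 39 loci were called. In the next 3 groups of increasing level the medians were -2.33, -2.11 and -2.40, with 25 of 38, 36 of 38 and 37 of 39 called. Of the 46 meiotic loci without a call, 29 belonged to the lowest 25%, and the pseudocount bears most on such loci.

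A few loci of higher level were not called either. B73_24PHAS_35087 had 315, 811 and 701 CPM in ago18HT-2mm and 375 and 488 CPM in ago18HM-2mm, so that the groups overlapped (log2 fold change -0.40, SE 0.39, limma adjusted p = 0.552). B73_24PHAS_774 had 99.9, 131 and 134 CPM against 51.2 and 78.6 CPM (-0.92, limma adjusted p = 0.1). B73_24PHAS_26989 had 30.0, 204 and 160.3 CPM against 48.8 and 50.9 CPM (-0.99, limma adjusted p = 0.372), where ago18HT-2mm replicate 1 lay below both mutant libraries. Without that library B73_24PHAS_26989 was called lower.

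**Figure D3:**
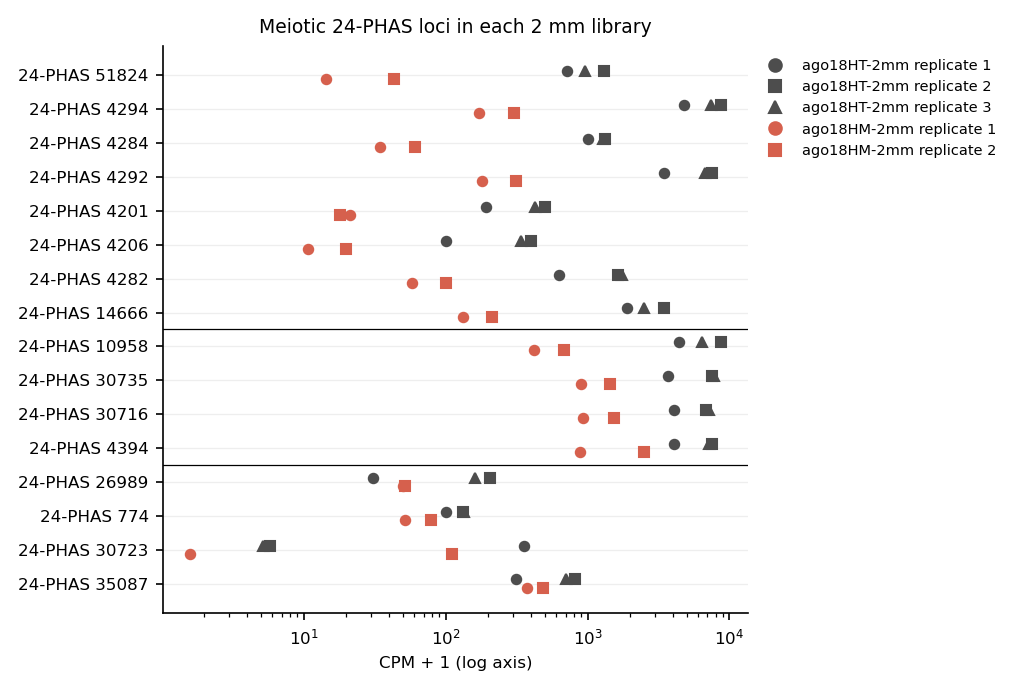
CPM + 1 (log x axis) of 16 meiotic 24-PHAS loci in each 2 mm library, as grey points for ago18HT and red points for ago18HM with a symbol per replicate. From top to bottom, separated by lines, are the 8 largest decreases, 4 further loci of the highest level in ago18HT and the 4 least changed loci above 100 CPM; red and grey points are apart in the upper 12 rows, as at B73_24PHAS_51824 (13.3 and 42.3 against 720.3 to 1302 CPM), and overlap in 3 of the lowest 4.

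Many meiotic loci lie beside each other in the genome. With starts no more than 200 kb apart and at least 3 loci, 84 of the 154 meiotic loci formed 15 runs, whose median log2 fold changes went from -3.81 to -1.37. The deepest run, chr1:182702004-183047725, held 8 loci from B73_24PHAS_4277 to B73_24PHAS_4294, all called lower. Its summed CPM was 12238, 24847 and 21997 in ago18HT-2mm and 780.0 and 1263 in ago18HM-2mm, or 5.19% of the ago18HT mean.

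Other runs kept more. The 8 loci at chr5:160878638-161586851, which include B73_24PHAS_30716 and B73_24PHAS_30735, summed to 12779, 19778 and 20005 CPM against 2417 and 5194 CPM, or 21.7%. The 9 loci at chr6:38832321-39240100, which include B73_24PHAS_35087 and B73_24PHAS_35090, summed to 4122, 13822 and 12221 CPM against 2046 and 3096 CPM, or 25.6%, and 4 of them were called. The 6 loci within chr5:1487630-1493209 summed to 286, 1382 and 1177 CPM against 261 and 317 CPM, or 30.5%, and 1 of them was called. In this last run ago18HT-2mm replicate 1 lay between the mutant libraries.

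**Figure D4:**
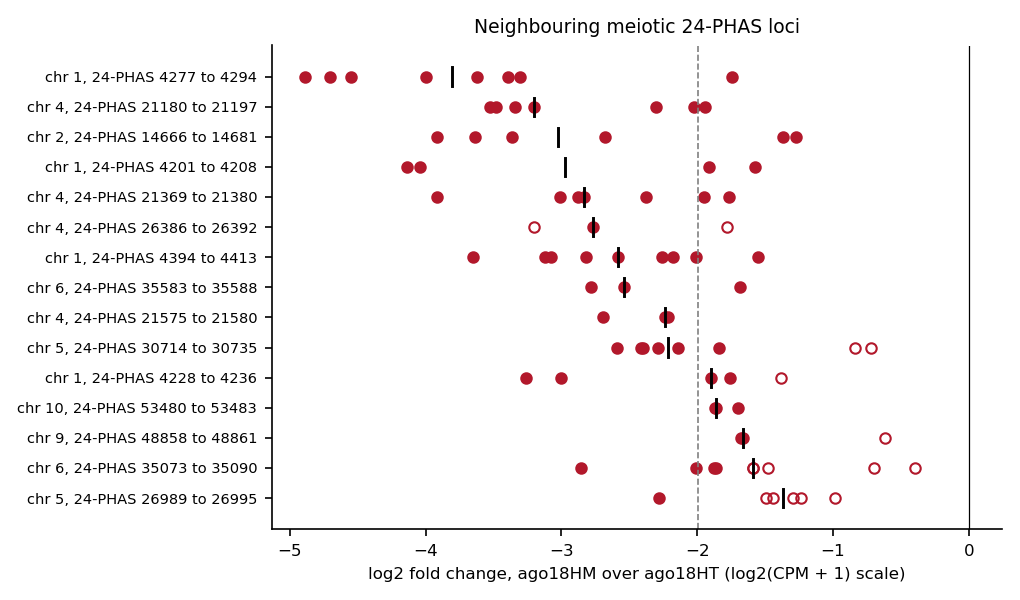
Log2 fold change of ago18HM over ago18HT (x axis, log2(CPM + 1) scale) of the meiotic loci in 15 runs of neighbours, named by chromosome and first and last locus and ordered by median. Filled points are called loci, open points are not, black ticks are run medians and the dashed line is the class median of -1.99; the top run, on chromosome 1, has a median of -3.81 and the lowest, on chromosome 5, one of -1.37.

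At both ends of the deepest run 21-PHAS loci lie beside or between meiotic loci. The run was singled out after its values were seen, and it is the only place in the table where a meiotic 24-PHAS locus has a 21-PHAS locus within 10 kb. B73_21PHAS_4293, at chr1:183043181-183044040 between B73_24PHAS_4292 and B73_24PHAS_4294, had 182, 159 and 175 CPM in ago18HT-2mm and 166 and 170.1 CPM in ago18HM-2mm (log2 fold change -0.03, limma adjusted p = 0.915). B73_21PHAS_4278, 97 bases from B73_24PHAS_4279, had 54.4, 45.2 and 38.5 CPM against 82.2 and 49.0 CPM (0.47, limma adjusted p = 0.387). The 5 meiotic loci with such a neighbour had log2 fold changes from -4.89 to -1.74, and the 4 neighbours had values from -0.06 to 0.47, with 0 of them called and all of their groups overlapping.

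Some loci are annotated with the same most abundant RNA. The 8 sets of meiotic loci with an identical sequence, 18 loci in all, differed within a set by a median of 0.10 in log2 fold change, against 1.39 between the quartiles of the class. The widest set was B73_24PHAS_26991 and B73_24PHAS_26992, whose values of -1.24 and -2.28 were 1.05 apart. In the 12 such sets of 21-PHAS loci, 25 loci in all, the median difference was 0.23, against 0.43 between the quartiles of that class. Multi-mapped reads were included in the counts, and the study's methods do not say at how many of their matches. Members of a set can thus share reads and were not taken as independent. The 3 sets that follow are shown because they span several loci of high or moderate level.
B73_24PHAS_30716 and B73_24PHAS_30735: Auacacuucucgcguuaacugcuc
B73_24PHAS_4403, B73_24PHAS_4409 and B73_24PHAS_4411: Acaaacgaucauaguagaaacaac
B73_24PHAS_35075, B73_24PHAS_35082 and B73_24PHAS_56665: Augggucuggcacaacgucacagu
B73_24PHAS_30716, at chr5:161027802-161029669, had 4060.4, 6778 and 7221 CPM against 925 and 1538 CPM (log2 fold change -2.29), and B73_24PHAS_30735, at chr5:161585528-161586851, had 3710, 7542 and 7734 CPM against 896 and 1448 CPM (-2.40). The second set, at chr1:187658095-187658911, chr1:187769461-187770729 and chr1:187847362-187848489, had log2 fold changes of -3.12, -3.65 and -3.08. The third set includes a copy on an unplaced scaffold, B73_24PHAS_56665, which was not called. B73_24PHAS_35075 and B73_24PHAS_35082 lie in the chromosome 6 run of 9 loci, of which 4 were called. The 3 values of this set ran only from -1.59 to -1.57.

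The 5′ base separated the meiotic loci little, because 144 of 154 begin with A. Their median log2 fold change was -2.01, and 101 were called. The 4 loci that begin with C were all called lower, with a median of -3.12. Among them B73_24PHAS_48725 had 2280, 3917 and 2679 CPM in ago18HT-2mm and 188 and 304 CPM in ago18HM-2mm (log2 fold change -3.59, limma adjusted p = 0.000152), and B73_24PHAS_35090 had 413, 1452 and 1105 CPM against 89.0 and 160.6 CPM (-2.86).

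Of the 4 loci that begin with G, 1 was called, B73_24PHAS_21372, with 69.3, 320 and 328 CPM against 9.58 and 14.8 CPM (log2 fold change -3.92). The other 3, B73_24PHAS_35076, B73_24PHAS_35083 and B73_24PHAS_56666, had log2 fold changes of -0.70, -1.48 and -0.71, and all were under 40 CPM in each 2 mm library. Both loci that begin with U were called lower (median -1.32). The median of the 21-PHAS loci was 0.19 for the 324 that begin with A, 0.28 for 56 with C, 0.16 for 30 with G and 0.31 for 20 with U.

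By position, 108 meiotic loci overlapped no RefSeq gene, and 84 of them were lower (median log2 fold change -2.15). All 7 that overlapped a long noncoding RNA gene were lower (median -2.69). The 30 that overlapped a protein-coding gene had a median of -0.66, with 11 lower. The levels of these groups differed as well, with median ago18HT-2mm values of 728, 2502 and 14.7 CPM, and the part of the level in this difference was not tested.

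Among premeiotic loci, B73_24PHAS_35105 had the largest decrease. It had 567, 1479 and 1246 CPM in ago18HT-2mm and 80.4 and 120.4 CPM in ago18HM-2mm (log2 fold change -3.35, SE 0.38, limma adjusted p = 0.000285). Its ago18HT replicate 1 was the lowest of the 3, while that library was above the mean of the other 2 at 70 of 75 premeiotic loci. It lies on chromosome 6 beyond the end of the run of 9 meiotic loci there.

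The other called premeiotic locus, B73_24PHAS_20630, had 80.9, 55.6 and 65.4 CPM against 27.8 and 24.8 CPM (log2 fold change -1.31, limma adjusted p = 0.00554). Its groups were apart although it was not abundant. B73_24PHAS_48293, the premeiotic locus with the highest mean CPM over the 5 libraries, had 1670, 582 and 683 CPM against 587 and 601 CPM, so that only replicate 1 stood above the mutants (-0.55, limma adjusted p = 0.415). B73_24PHAS_51550 had 1048, 466 and 591 CPM against 345 and 458 CPM, and B73_24PHAS_47479 had 983, 413 and 478 CPM against 346 and 376 CPM (limma adjusted p = 0.177 and 0.253). In all, both mutant libraries were below the 3 ago18HT libraries at 13 of 75 premeiotic loci (17.3%), against 25.5% of all loci. The class median was 0.06 without ago18HT-2mm replicate 1.

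Of the 2 lower 21-PHAS loci, B73_21PHAS_6425 had 216, 172 and 156 CPM in ago18HT-2mm and 109 and 65.7 CPM in ago18HM-2mm (log2 fold change -1.08, limma adjusted p = 0.018). B73_21PHAS_6427 had 46.6, 48.9 and 46.1 CPM against 25.9 and 18.2 CPM (-1.09, limma adjusted p = 0.0138). They belong to a run of 9 21-PHAS loci at chr1:255241521-255319002, in which the next locus on either side, B73_21PHAS_6424 and B73_21PHAS_6428, had log2 fold changes of -0.33 and -0.52 with no call. The remaining 5 loci of the run ranged from -0.04 to 0.40. Both calls were lost without ago18HM-2mm replicate 2, the lower library at both loci.

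The higher 21-PHAS loci, apart from B73_21PHAS_38579, had log2 fold changes of at most 1.06. B73_21PHAS_3908 had 103, 104.5 and 129 CPM in ago18HT-2mm and 243 and 224 CPM in ago18HM-2mm (log2 fold change 1.06, SE 0.16, limma adjusted p = 0.00137). It kept its call in every alternative run. B73_21PHAS_39753 had 93.7, 109.6 and 124.8 CPM against 214 and 243 CPM (1.06, limma adjusted p = 0.0155), and its call was lost when either mutant library was left out. The other 10, among them B73_21PHAS_17595 (0.86), B73_21PHAS_7660 (0.84) and B73_21PHAS_47038 (0.75), had log2 fold changes of 0.63 to 0.86 and lie on 7 chromosomes. Each of these 10 lost its call in at least 2 of the 14 alternatives, B73_21PHAS_47038 in 9 and B73_21PHAS_15743 and B73_21PHAS_21419 in 6 each.

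B73_21PHAS_38579 had the largest increase in the table, from 1.24, 0.484 and 1.07 CPM to 50.5 and 53.3 CPM (log2 fold change 4.80, SE 1.41, limma adjusted p = 0.0402). Its groups were far apart at 2 mm, but its values at 5 mm were high in some libraries of each genotype and low in others, with 63.0, 1.34 and 5.62 CPM in ago18HT-5mm and 4.10, 73.6 and 67.3 CPM in ago18HM-5mm. Its adjusted p went from 0.0115 to 0.183 over the alternatives, and it was above 0.05 whenever any 2 mm library was left out. The most abundant 21-PHAS loci were not called. B73_21PHAS_21116 had 1628, 1314 and 1217 CPM against 2400 and 1930 CPM (0.65, limma adjusted p = 0.0788), and B73_21PHAS_11720, B73_21PHAS_12188 and B73_21PHAS_17589 had log2 fold changes of 0.69, 0.50 and 0.43, with both mutant libraries above all ago18HT libraries at each.

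**Figure D5:**
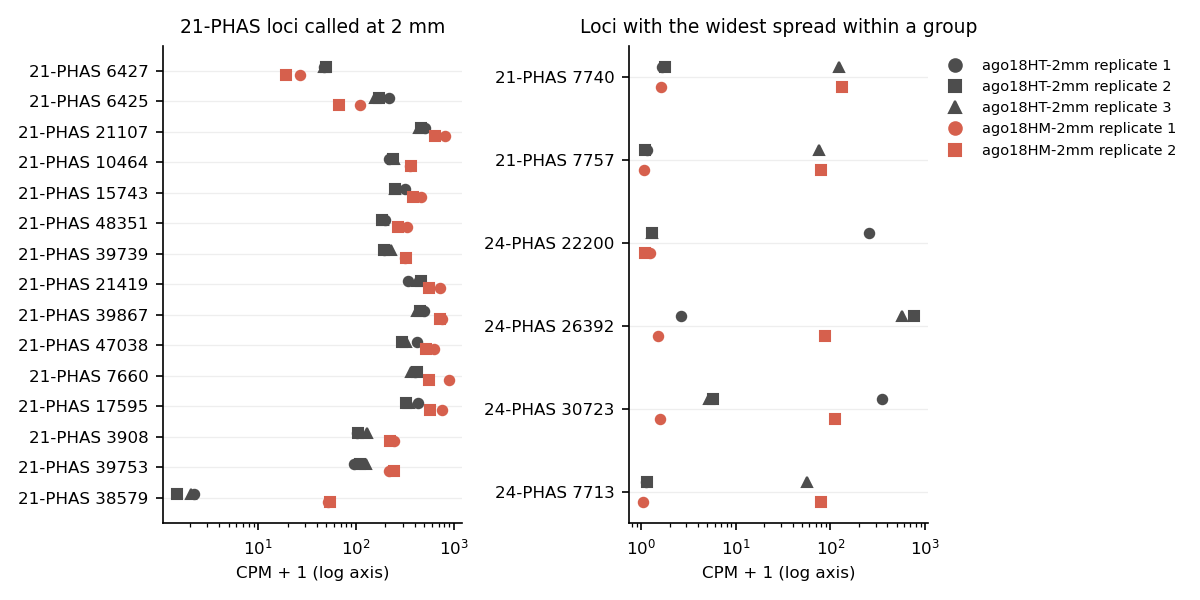
CPM + 1 (log x axis) in each 2 mm library, grey for ago18HT and red for ago18HM with a symbol per replicate, of the 15 called 21-PHAS loci (left) and of the 6 loci with the largest SD within a genotype (right). On the left red and grey points are apart at each locus, and on the right B73_21PHAS_7740, B73_21PHAS_7757 and B73_24PHAS_7713 are high in ago18HT replicate 3 and ago18HM replicate 2 only.

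Some loci were on in some libraries and nearly off in others, across genotypes. The within-genotype SD of log2(CPM + 1) exceeded 2 at 17 loci, of which 6 were 21-PHAS, 7 premeiotic and 4 meiotic, while its median was 0.19, 0.82 and 0.57 for these classes. B73_21PHAS_7740, at chr1:291476234-291477606, had 0.641, 0.786 and 124 CPM in ago18HT-2mm and 0.622 and 130.1 CPM in ago18HM-2mm. Loci above 2 times all other 2 mm libraries in both ago18HT-2mm replicate 3 and ago18HM-2mm replicate 2 numbered 12, and all of them lay between chr1:290185167-290185982 and chr1:291857249-291858704.

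This stretch of chromosome 1 holds 36 21-PHAS and 2 premeiotic loci in the table. Of these, 10 21-PHAS loci and both premeiotic loci, B73_24PHAS_7713 and B73_24PHAS_7718, showed the shared pattern by the limit of 2 times. Some others came close to the limit, such as B73_21PHAS_7747 with 14.7, 22.6 and 62.8 CPM against 32.7 and 68.3 CPM. B73_24PHAS_7713 had 0.137, 0.151 and 56.1 CPM against 0.0377 and 78.6 CPM. Of the 12 loci with the pattern, 0 were called between genotypes. The SE of the log2 fold change was 2.58 at B73_24PHAS_7713 and 2.93 at B73_21PHAS_7740 (limma adjusted p = 0.826 and 0.865).

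Elsewhere the pattern was of other libraries. B73_24PHAS_22200, a premeiotic locus on chromosome 4, had 257 CPM in ago18HT-2mm replicate 1 and between 0.108 and 0.309 CPM in the other 4 libraries. B73_24PHAS_26392, a meiotic locus on the same chromosome, had 1.62, 767 and 575 CPM against 0.490 and 86.3 CPM, and B73_24PHAS_30723 had 354, 4.78 and 4.16 CPM against 0.584 and 110.9 CPM. At these 3 loci the mean of a group rested on 1 or 2 of its libraries.

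Lastly, the genotype difference was compared between anther lengths at each locus by an interaction term. The term was lower at 52 meiotic loci and 1 21-PHAS locus, against 8.04% of all loci, and higher at 1 premeiotic locus, against 0.152%, where lower stands for a decrease in ago18HM that is deeper at 5 mm. Of the loci named here, B73_24PHAS_35087, which was not called at 2 mm, had 2529, 1899 and 1749 CPM in ago18HT-5mm and 154, 159.8 and 100.4 CPM in ago18HM-5mm (term -3.50, SE 0.53, limma adjusted p = 0.00731). B73_24PHAS_51824 and B73_24PHAS_4294, with the deepest decreases at 2 mm, had terms of 0.86 and -0.33 with no call (limma adjusted p = 0.654 and 0.751). These loci were named for their 2 mm difference, which the term subtracts, so that choice alone can shift their terms. The 5 mm libraries were shallower, with denominators between 5419067 and 17805878 reads, so that depth and length cannot be told apart, and the total of 54 calls fell to 13 without ago18HM-2mm replicate 2.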

How the data were processed

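The 5 libraries of 2 mm anthers, prepared with the TraPR and RealSeq-AC kits, were grouped by title, and the study's methods state that replicates came from distinct plants. The authors mapped reads to B73 RefGen_v5 with Bowtie 1.3.1, counted them over PHAS loci with featureCounts 1.6.3, multi-mapped reads included, and deposited CPM values made with edgeR 4.0.2. The 659 loci and 11 columns were used as deposited. Within each library all values were whole multiples of 1 step to within 3.03e-05 reads, which gave the denominators. A count of 0 allows 3 reads, or 0.0566 to 0.0907 CPM at 2 mm, for counting error only.

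Log2(CPM + 1) was fitted with limma 3.58.1 in R 4.3.3 (4 group means over the 11 libraries, trended eBayes), with Benjamini-Hochberg adjustment over all loci. The filter (1 CPM in at least 2 libraries) removed no locus. The fits were tested on simulated data with a common SD for all loci, which does not show how calls behave at loci of larger spread. Class sums were compared by two-sided exact permutation tests. Alternatives were other pseudocounts, filters, scalings, thresholds, a fit of the 2 mm libraries alone, a replicate block and fits without each library in turn, and voom on recovered reads was added after seeing the data.

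Named loci were, of the meiotic class, the 8 largest decreases among called loci without overlap, the 6 most abundant in ago18HT-2mm and the 4 with the highest log2 fold change from 100 CPM on. Of the other classes they were every called locus and the 4 most abundant, and of all classes the 6 with the largest SD within a genotype. Any further locus was picked with its values in view. The loci, lists and tests were chosen with earlier results of these data known. Classes, positions and sequences came from the study's supplementary annotation, and overlapping genes from RefSeq on Zm-B73-REFERENCE-NAM-5.0.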

Additional observations from a re-analysis of the deposited data

Results flagged for a closer look

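The genotype difference differed between 2 mm and 5 mm anthers by the interaction term of the limma fit where 52 meiotic loci had a lower term. A lower term was also seen at 1 21-PHAS locus, and a higher one at 1 premeiotic locus. Over all loci the term was lower at 8.04% and higher at 0.152%. The 5 mm libraries were shallower, so that depth and length cannot be told apart. Calls were far fewer without ago18HM-2mm replicate 2. Among the loci named above, the terms were -3.61 at B73_24PHAS_26989 (limma adjusted p = 0.0449), -3.50 at B73_24PHAS_35087 (0.00731), -2.06 at B73_24PHAS_30735 (0.0455), -2.05 at B73_24PHAS_30716 (0.0355) and -1.91 at B73_24PHAS_774 (0.0409). The loci named above, B73_21PHAS_6427 and B73_24PHAS_20630 among them, were picked by 2 mm values that also enter the term. That choice alone can shift their terms. B73_24PHAS_26989 had 30.0 CPM in ago18HT-2mm replicate 1, against 204 and 160.3 CPM in replicates 2 and 3. Without replicate 1 it was called lower at 2 mm. B73_24PHAS_30716, with 925 and 1538 CPM in ago18HM-2mm, had 479.5, 587 and 345 CPM in ago18HM-5mm. The 21-PHAS locus was B73_21PHAS_6427, with a term of -1.63 (limma adjusted p = 0.0301) and 6.51, 4.43 and 3.30 CPM in ago18HM-5mm. The premeiotic locus was B73_24PHAS_20630, with a term of 1.49 (limma adjusted p = 0.038) and 93.2, 59.2 and 64.0 CPM in ago18HM-5mm, against 27.8 and 24.8 CPM at 2 mm. With 2 or 3 libraries per group, no group was large enough for the test of a single outlying library.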

How the results depend on the processing

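The meiotic decrease kept its direction under all alternatives run, and no meiotic or premeiotic locus was called higher. Fitting the 2 mm libraries alone, with fewer samples, gave 55 lower meiotic, 1 lower 21-PHAS and 6 higher 21-PHAS loci. Leaving out 1 library gave 62 (without ago18HM-2mm replicate 1) to 121 lower meiotic, 2 to 4 lower premeiotic (4 without ago18HT-2mm replicate 2 or ago18HM-2mm replicate 2), 0 to 3 lower 21-PHAS and 3 to 25 higher 21-PHAS loci. In these fits the 21-PHAS sum ratio was 1.16 to 1.28, and the interaction had 13 (without ago18HM-2mm replicate 2) to 57 calls. Higher 21-PHAS loci numbered 3 without ago18HM-2mm replicate 1, 7 without ago18HT-2mm replicate 3 and 25 without ago18HM-2mm replicate 2. Where a lone mutant library was left, it was assumed to vary like the other groups. An adjusted p below 0.01 left 0 lower and 5 higher 21-PHAS loci. Centring on 21-PHAS loci gave 5 higher 21-PHAS loci and a class median of 0.036, and median ratio scaling gave 24 and 0.28. As shares of all PHAS CPM, the meiotic ratio was 0.376, the premeiotic one 1.05 and that of 21-PHAS loci 2.43. With the meiotic CPM taken out of the library denominator of the CPM, the 21-PHAS ratio was 1.02. The part of the denominator in the 21-PHAS increase was not tested. The median of the 2 meiotic loci with 5′ U was -2.02 with a pseudocount of 0.1, -0.83 with 5, -2.22 with voom, and -1.54 to -1.10 when 1 library was left out. Apart from fits with fewer samples or a stricter threshold, the cause was not tested. Of 29 called loci named, 12 kept the call in all 14 alternatives, and none of the named loci reversed a called direction.

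Whether replicate numbers pair the libraries could not be decided. The correlations of deviations were 0.254 for replicates 1 and -0.264 for replicates 2, with only 2 such pairs. With 2 mutant libraries, their deviations from the group mean are mirror images, so the 2 correlations are not independent. The replicate block gave 104 lower meiotic, 4 lower premeiotic and 11 higher 21-PHAS loci. The edgeR tests planned for whole reads recovered from the CPM steps were not run, since the libraries hold only 5 to 13 values of 1 to 20 reads each at 2 mm, too few to check the recovered reads at low values. With 2 mutant libraries, the smallest permutation p is 0.1.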
